A study of Mus musculus with 12 samples.

Results

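A set of 9 genes grouped under striatal dopamine and adenosine signalling was described in hippocampal RNA, library by library. Not all encode signalling proteins, as Rxrg and Six3 encode nuclear factors and Ido1 an enzyme of tryptophan breakdown. The members were Drd1, Drd2, Adora2a, Ppp1r1b, Pde10a, Rgs9, Rxrg, Six3 and Ido1, taken by symbol and matched by Ensembl ID. All 9 were found among the 35812 gene IDs of the count table, had counts above 0 in each of the 12 libraries and passed the filter on low counts that left 16153 genes for testing. The libraries were made from hippocampi of C57BL/6 males, all 8 weeks old, with 3 independent mice in each of 4 groups. F1_Dep were sons of males with stress-induced depression, F1_Ctl were sons of normal males, F0_Dep were males with stress-induced depression and F0_Ctl were normal males. No transgene or drug is given for any group. The labels name neither the stress procedure nor a father or litter, so sons of a group may share a father. Lane names stand in the labels of F1_Ctl alone, so a sequencing batch and that group cannot be told apart.

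The striatum lies under the cortex, and most of its neurons are medium spiny neurons, inhibitory projection cells that receive dopamine from the midbrain. One population carries the dopamine receptor encoded by Drd1, which stimulates adenylyl cyclase, and the other carries the receptor encoded by Drd2, which inhibits it, together with the adenosine receptor encoded by Adora2a, which stimulates it. Both populations share the cyclic AMP machinery downstream, such as Ppp1r1b and Pde10a. The hippocampus also expresses Drd1 and Drd2, at far lower levels than the striatum.

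A single library stood apart from the rest. F1_Dep 1 had the highest level of all 9 members, and for each of them it exceeded the next highest library more than 2 times. Over all 16153 genes tested, 9.13% were highest in F1_Dep 1 and 0.508% exceeded the next library more than 2 times there. Library totals ran from 18277208 to 23083678 expected counts, and F1_Dep 1 held 19131961, so its depth lay within the range of the others. Marker lists of other cells and regions also differed between libraries. The level of dentate granule cell markers, the median over 11 genes of log2 CPM after subtracting each gene's mean over the 12 libraries, was -1.94 in F1_Dep 1, -0.27 and -0.67 in F1_Dep 2 and 3, and between 0.00 and 0.60 in the other groups. Choroid plexus markers, from the fluid-secreting tissue in the ventricles, had levels of 1.60, 2.85 and 2.79 in F1_Dep, of 3.87 in F1_Ctl 3 and 2.63 in F0_Ctl 3, and of at most 0.02 in the other 7 libraries. Because single libraries carry much of what follows, results are given with and without them. In bulk tissue, more cells of a type and more RNA per cell cannot be told apart. Whether neighbouring striatal tissue entered the piece of F1_Dep 1 was not tested.

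**Figure D1:**
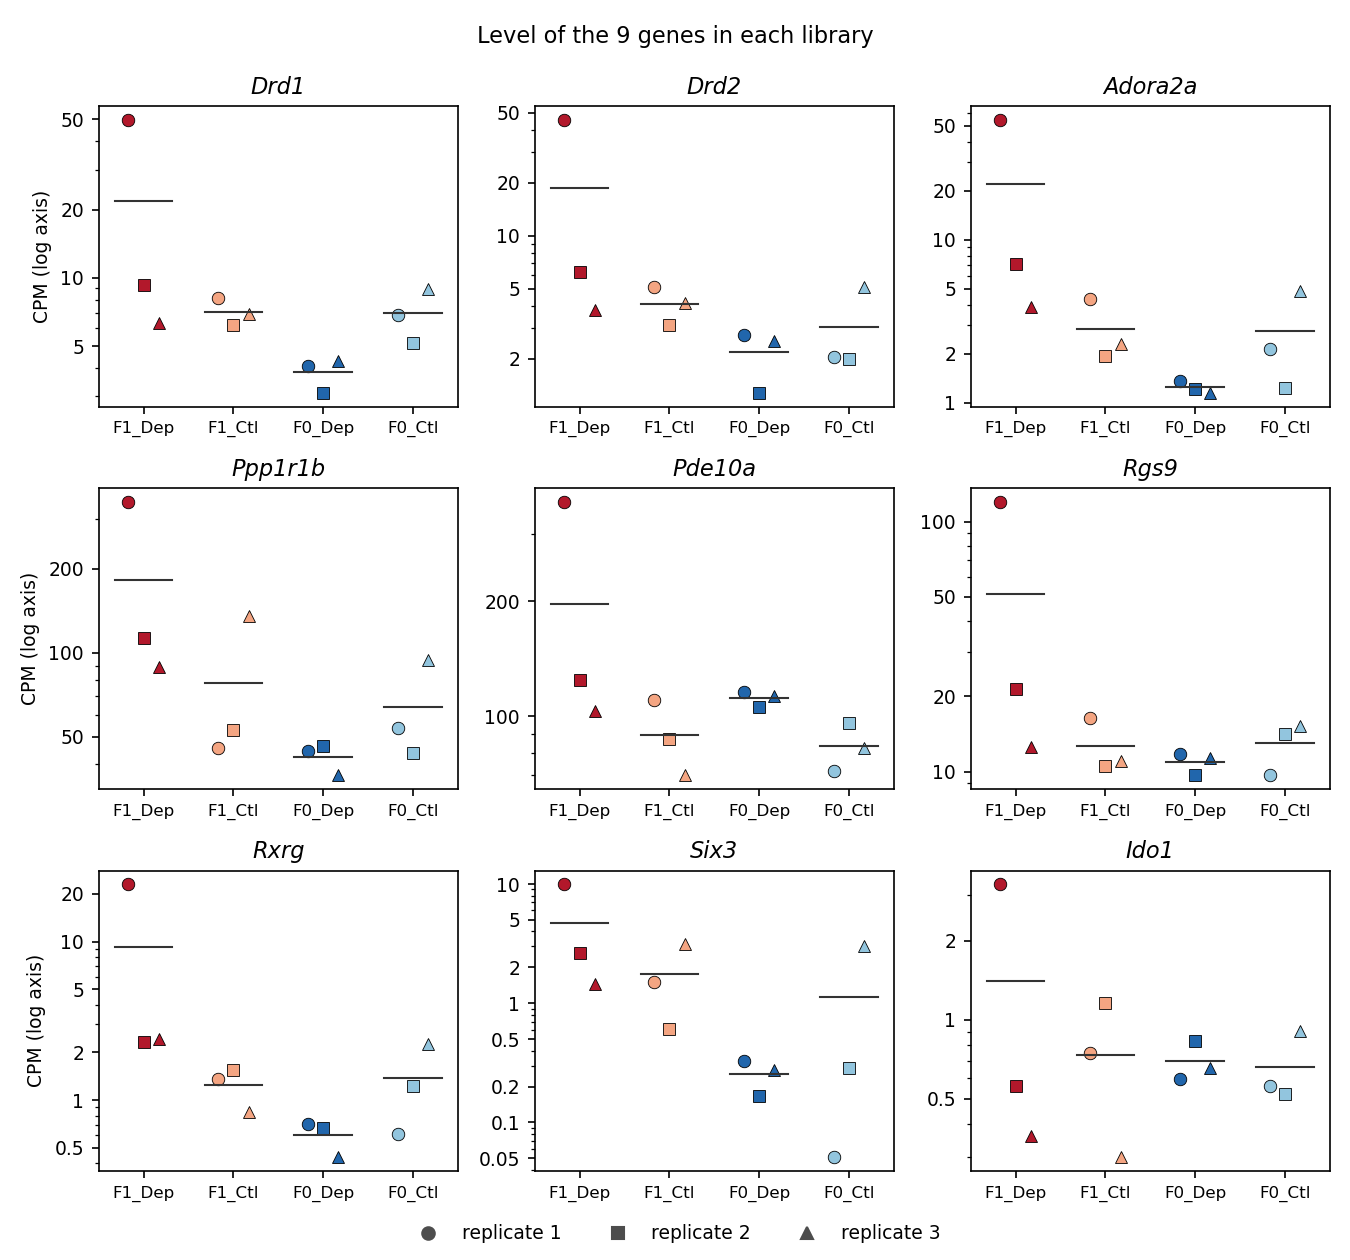
CPM (counts scaled to the TMM-scaled library size, log axis) of each of the 9 genes in each library, by group; the marker shape gives the replicate and the line the group mean. F1_Dep 1 is the top point in each panel. For Six3, Ido1 and Ppp1r1b the other 11 libraries spread more widely than its distance above the next library.

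All 3 receptor genes were several times higher in F1_Dep 1 than in any other library. Drd1 (ENSMUSG00000021478, GRCm38 chromosome 13, 54051183 to 54055705, minus strand, protein-coding) had 49.8, 9.25 and 6.30 CPM in F1_Dep 1 to 3, 8.13, 6.22 and 6.94 CPM in F1_Ctl, 4.07, 3.10 and 4.31 CPM in F0_Dep, and 6.87, 5.13 and 8.90 CPM in F0_Ctl. F1_Dep 1 was 7.91 times the median of the other 11 libraries, and F1_Dep 3 lay inside the F1_Ctl range. All F0_Dep libraries were below all F0_Ctl libraries. Drd2 (ENSMUSG00000032259, chromosome 9, 49340627 to 49408177, plus strand) had 45.5, 6.24 and 3.78 CPM in F1_Dep, 5.10, 3.08 and 4.14 CPM in F1_Ctl, 2.72, 1.27 and 2.51 CPM in F0_Dep, and 2.04, 1.996 and 5.08 CPM in F0_Ctl. For Drd2 the F1_Dep 1 value was 14.8 times the median of the other 11. The remaining F1_Dep libraries overlapped those of both control groups. Adora2a (ENSMUSG00000020178, chromosome 10, 75316877 to 75334784, plus strand) had 54.6, 7.10 and 3.87 CPM in F1_Dep, 4.31, 1.93 and 2.30 CPM in F1_Ctl, 1.36, 1.22 and 1.15 CPM in F0_Dep, and 2.14, 1.24 and 4.86 CPM in F0_Ctl. Adora2a in F1_Dep 1 was 25.5 times the median of the other libraries, the largest such ratio of the 9 genes. For this gene each F1_Dep library was above each F0_Dep library, and the 3 F0_Dep libraries were the closest together.

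The 3 genes for signalling proteins downstream of these receptors had their highest level in F1_Dep 1 too. Ppp1r1b, a phosphoprotein that inhibits protein phosphatase when phosphorylated by protein kinase A (ENSMUSG00000061718, chromosome 11, 98348404 to 98357796, plus strand), had 346, 113 and 88.6 CPM in F1_Dep, 45.5, 53.1 and 136 CPM in F1_Ctl, 44.4, 46.3 and 36.5 CPM in F0_Dep, and 53.9, 43.8 and 94.3 CPM in F0_Ctl. F1_Ctl 3 ranked 2 for Ppp1r1b, and F0_Ctl 3 was the highest of its group. Each F1_Dep library exceeded each F0_Dep library. Pde10a, a phosphodiesterase that breaks down cyclic AMP and cyclic GMP (ENSMUSG00000023868, chromosome 17, 8525372 to 8986648, plus strand), had 365, 124 and 103 CPM in F1_Dep, 110, 87.2 and 70.0 CPM in F1_Ctl, 116, 106 and 113 CPM in F0_Dep, and 71.8, 96.1 and 82.4 CPM in F0_Ctl. Pde10a varied least outside F1_Dep 1, with the highest of the other 11 libraries 1.77 times the lowest, and F0_Dep lay above F0_Ctl in every library. Rgs9, a regulator that speeds the shut-off of G proteins coupled to dopamine receptors (ENSMUSG00000020599, chromosome 11, 109225355 to 109298129, minus strand), had 120, 21.3 and 12.5 CPM in F1_Dep, 16.3, 10.5 and 11.03 CPM in F1_Ctl, 11.7, 9.70 and 11.3 CPM in F0_Dep, and 9.67, 14.2 and 15.3 CPM in F0_Ctl. F1_Dep 1 was 10.2 times the median of the other libraries for Rgs9, whose other groups overlapped throughout.

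Among the nuclear factors, Rxrg encodes a retinoid X receptor, a partner of other nuclear receptors (ENSMUSG00000015843, chromosome 1, 167598384 to 167639623, plus strand). It had 23.0, 2.32 and 2.43 CPM in F1_Dep, 1.36, 1.54 and 0.848 CPM in F1_Ctl, 0.706, 0.665 and 0.436 CPM in F0_Dep, and 0.611, 1.24 and 2.27 CPM in F0_Ctl. Rxrg was the gene whose F1_Dep libraries 2 and 3 also exceeded every library of each other group. Six3, a homeobox transcription factor of the developing forebrain (ENSMUSG00000038805, chromosome 17, 85613608 to 85629302, plus strand), had 9.98, 2.63 and 1.44 CPM in F1_Dep, 1.49, 0.605 and 3.14 CPM in F1_Ctl, 0.326, 0.166 and 0.273 CPM in F0_Dep, and 0.0509, 0.285 and 3.04 CPM in F0_Ctl. Its spread was the widest of the 9 genes, with the highest of the 11 libraries other than F1_Dep 1 at 61.8 times the lowest, which rested on a single count in F0_Ctl 1. F1_Ctl 3 and F0_Ctl 3 ranked 2 and 3 for Six3. Six3 shares 106 exon bases with Six3os1 and 168 with Gm28528 on the opposite strand, and Ppp1r1b shares 460 with 1700003D09Rik. The library kit was stranded per the labels' protocols, but no source used here says whether counting used strand, so reads of these partners cannot be told apart.

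Ido1, an enzyme that starts the breakdown of tryptophan along the kynurenine route (ENSMUSG00000031551, chromosome 8, 24584136 to 24597009, minus strand), had the fewest counts. It held 64, 13 and 8 expected counts in F1_Dep, 17, 21 and 6 in F1_Ctl, 11, 15 and 12 in F0_Dep, and 11, 11 and 20 in F0_Ctl. In CPM these were 3.29, 0.559 and 0.360 in F1_Dep, 0.747, 1.16 and 0.299 in F1_Ctl, 0.597, 0.831 and 0.654 in F0_Dep, and 0.560, 0.523 and 0.908 in F0_Ctl. F1_Dep 1 was the top library for Ido1, while F1_Dep 2 and 3 ranked 9 and 11 of 12.

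RefSeq promoter windows of GRCm38.p6, from 250 bases before to 50 after the annotated start, were matched by symbol for 6 of the 9 genes. The 4 whose start lay closest to the start of the counted gene are shown, since these genes had their highest level in the same library and the windows let their start regions be compared. They lie at chr13:54055609-54055908 for Drd1 and chr11:109298132-109298431 for Rgs9, both on the minus strand, and at chr9:49340153-49340452 for Drd2 and chr1:167598112-167598411 for Rxrg, both on the plus strand. Each is written 5′ to 3′ along its gene. Capitals mark every match, on either strand, to GGGCGG (the GC box), TATAAA (the TATA box) or CCAAT (the CCAAT box). No match overlaps another.
Drd1: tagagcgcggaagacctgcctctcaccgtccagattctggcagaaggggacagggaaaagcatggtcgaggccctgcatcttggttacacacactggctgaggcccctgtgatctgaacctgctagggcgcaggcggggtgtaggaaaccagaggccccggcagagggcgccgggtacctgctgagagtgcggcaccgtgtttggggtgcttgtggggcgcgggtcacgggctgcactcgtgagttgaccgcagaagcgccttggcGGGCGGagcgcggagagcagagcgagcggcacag
Drd2: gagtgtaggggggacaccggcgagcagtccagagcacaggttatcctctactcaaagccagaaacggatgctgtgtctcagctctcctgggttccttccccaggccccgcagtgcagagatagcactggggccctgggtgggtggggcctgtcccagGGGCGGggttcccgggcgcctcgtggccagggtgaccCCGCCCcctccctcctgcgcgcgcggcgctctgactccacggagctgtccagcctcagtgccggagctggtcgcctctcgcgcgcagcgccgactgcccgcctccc
Rgs9: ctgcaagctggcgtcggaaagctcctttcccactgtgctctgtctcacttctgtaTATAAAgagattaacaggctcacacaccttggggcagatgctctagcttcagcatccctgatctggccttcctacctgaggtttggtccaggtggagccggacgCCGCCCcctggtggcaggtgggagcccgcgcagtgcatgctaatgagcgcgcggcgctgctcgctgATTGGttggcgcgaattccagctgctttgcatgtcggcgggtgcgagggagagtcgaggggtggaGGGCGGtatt
Rxrg: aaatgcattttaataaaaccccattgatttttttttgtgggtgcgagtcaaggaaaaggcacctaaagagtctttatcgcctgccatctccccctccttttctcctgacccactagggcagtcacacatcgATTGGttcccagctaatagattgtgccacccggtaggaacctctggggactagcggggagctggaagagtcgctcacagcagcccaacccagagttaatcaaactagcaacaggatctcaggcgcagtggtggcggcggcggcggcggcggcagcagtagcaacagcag
The Drd1 and Drd2 windows are rich in G and C, at 65.7% and 70.3%, against 60.3% for Rgs9, 53.7% for Rxrg and a median of 52.7% over 32851 windows of the same length. A GC box was found once in the Drd1 window, in 2 places in those of Drd2 and Rgs9 and not in that of Rxrg, and 35.7% of all windows hold one. The Rgs9 window matched the TATA box letters near its 5′ end, not close to the annotated start, and 13.6% of windows hold a match. The Rgs9 and Rxrg windows each matched the CCAAT box letters, as 37.4% of windows do. The cyclic AMP response element TGACGTCA, in 1.79% of all windows, was found in none of the 6 members' windows.

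Set against every other library, F1_Dep 1 was furthest out for Rxrg, at 9.46 times the next highest library, and for Adora2a and Drd2, at 7.69 and 7.29 times. Rgs9 and Drd1 followed at 5.63 and 5.38 times. The ratio was 3.17 for Six3, 2.94 for Pde10a, 2.85 for Ido1 and 2.55 for Ppp1r1b. In 5 genes (Adora2a, Drd1, Drd2, Pde10a and Rgs9) the next highest library was F1_Dep 2. It was F1_Dep 3 for Rxrg, F1_Ctl 3 for Six3 and Ppp1r1b, and F1_Ctl 2 for Ido1.

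A list of 32 other genes known from medium spiny neurons, of which 30 were measured and 29 passed the filter, gave the same library as an extreme. In 23 of the 29 the highest library was F1_Dep 1, in 11 by more than 2 times. Penk, the enkephalin precursor, reached 244 CPM in F1_Dep 1 and 58.1 CPM in the next library, and Tac1, the substance P precursor, 34.9 CPM and 9.08 CPM. Isl1, a transcription factor that failed the filter, had 2.93 CPM in F1_Dep 1 and at most 0.545 CPM elsewhere. Not every gene of the list followed. Bcl11b and Cnr1, the pair with the highest mean CPM, had 176, 198 and 194 CPM and 209, 190 and 190 CPM in F1_Dep. Their levels in the other groups were 145 to 267 CPM for Bcl11b and 169 to 237 CPM for Cnr1.

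**Figure D2:**
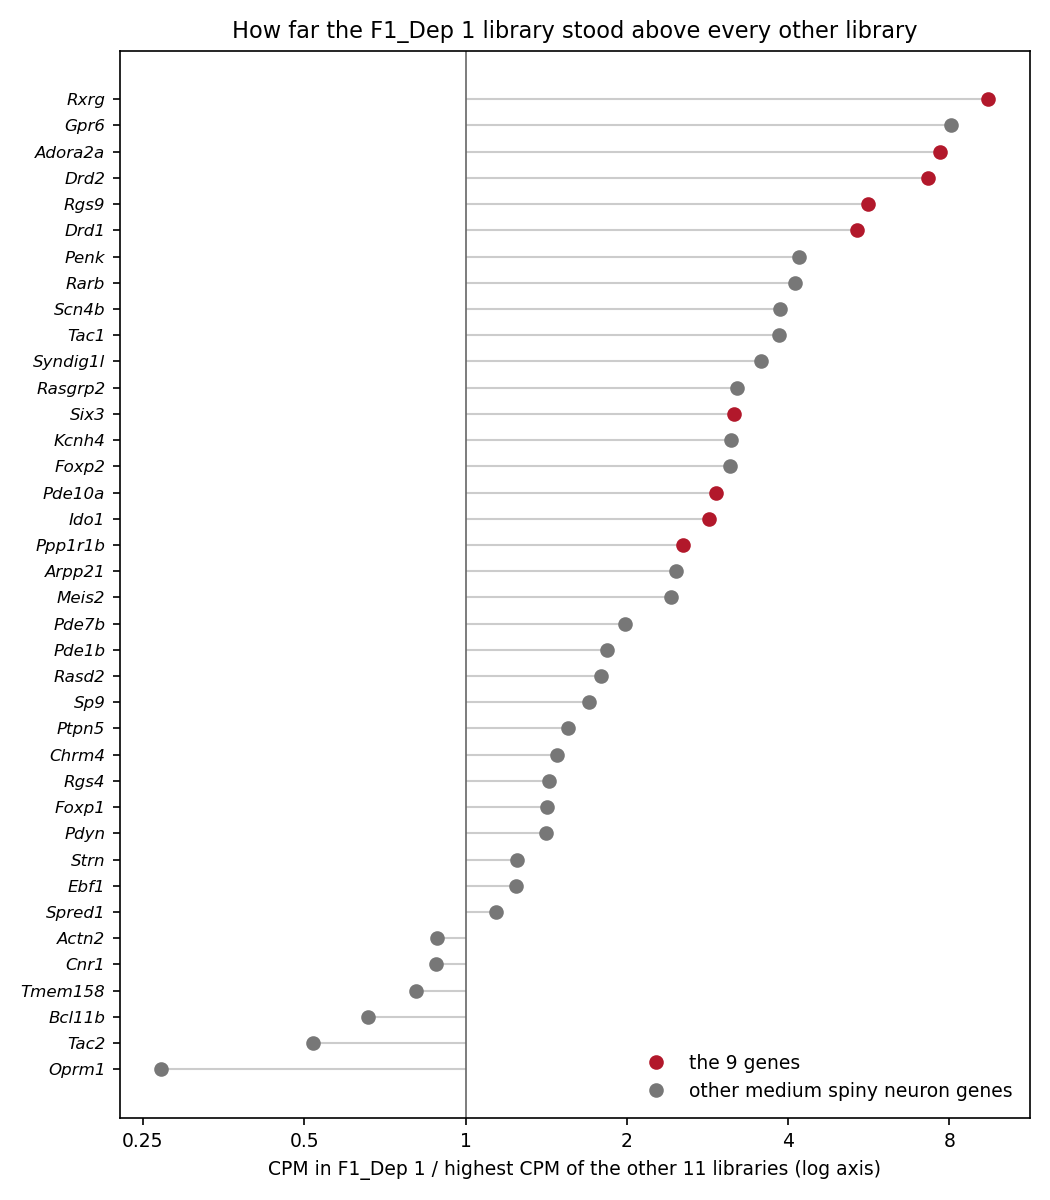
CPM in F1_Dep 1 divided by the highest CPM among the other 11 libraries (log axis), for the 9 genes in red and 29 other medium spiny neuron genes in grey; the line at 1 marks equality. All 9 red points lie above 2, and 23 of the 29 grey points lie above 1.

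Some proportions among the genes differed in F1_Dep 1 as well. In FPKM, deposited for the F1_Dep, F0_Dep and F0_Ctl libraries, which allows levels of different genes to be set side by side, F1_Dep 1 had 162 for Ppp1r1b, 49.3 for Pde10a, 39.7 for Rgs9, 24.6 for Adora2a, 16.8 for Drd2, 13.98 for Drd1, 9.43 for Rxrg, 4.16 for Six3 and 1.71 for Ido1. Adora2a and Drd2 ranked above Drd1 there. In the other 8 libraries Drd1 ranked above Drd2, and Adora2a above Drd1 in F1_Dep 2 alone. The ratio of Drd2 to Drd1 in FPKM was 1.20, 0.791 and 0.720 in F1_Dep, 0.773, 0.456 and 0.646 in F0_Dep, and 0.372, 0.441 and 0.753 in F0_Ctl. Adora2a relative to Drd1 gave 1.76, 1.03 and 0.842 in F1_Dep, 0.369, 0.513 and 0.288 in F0_Dep, and 0.491, 0.382 and 0.870 in F0_Ctl. Rgs9 relative to Pde10a gave 0.806, 0.375 and 0.274 in F1_Dep, 0.206, 0.188 and 0.202 in F0_Dep, and 0.316, 0.354 and 0.446 in F0_Ctl. Ppp1r1b relative to Pde10a gave 3.28, 2.91 and 2.79 in F1_Dep, 1.01, 1.12 and 0.900 in F0_Dep, and 2.59, 1.45 and 3.77 in F0_Ctl. That ratio was highest in F0_Ctl 3, not in F1_Dep 1. For the ratio of Adora2a to Drd1, F1_Dep lay above F0_Dep in each library, while F0_Ctl 3 lay inside the F1_Dep range.

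Sons of depressed males were set against depressed males, and here Adora2a and Rxrg rose in F1_Dep. The log2 fold change of Adora2a was 4.13 ± 0.92 (SE), with means of 21.9 ± 28.4 CPM in F1_Dep and 1.24 ± 0.11 CPM in F0_Dep (SD, n = 3 each), and an adjusted p = 0.0404 (edgeR quasi-likelihood test, Benjamini-Hochberg over 16153 genes). Rxrg gave 3.92 ± 0.89 with an adjusted p = 0.0412 in that test, with means of 9.25 ± 11.9 CPM in F1_Dep and 0.602 ± 0.145 CPM in F0_Dep. These were 2 of 9 members, against 2.88% of all genes called in either direction and 1.31% called higher. The other 7 did not pass, with log2 fold changes of 2.50 ± 0.63 for Drd1, 3.09 ± 0.82 for Drd2, 2.11 ± 0.54 for Ppp1r1b, 2.23 ± 0.65 for Rgs9, 4.16 ± 1.21 for Six3, 0.83 ± 0.37 for Pde10a and 0.99 ± 0.73 for Ido1. The edgeR adjusted p of Drd1, Ppp1r1b and Drd2 was 0.0523, 0.0541 and 0.0583, and the others lay between 0.0759 and 0.441. The median over the members was 2.50, against 0.01 over all genes.

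Both calls rested on single libraries. Without F1_Dep 1 none of the 9 was called by edgeR, as were 0.0786% of all genes, 7 had an unadjusted p under 0.05, against 16.5% of all genes, and the median was 1.21. Adora2a then had a log2 fold change of 2.14 ± 0.53 and Rxrg 1.97 ± 0.49, with an edgeR adjusted p of 0.122 for each. No call was made either without F1_Dep 3, without F1_Ctl 2, or without any one of the F0_Dep libraries, with edgeR adjusted p of Adora2a of 0.0608, 0.0597, 0.122, 0.139 and 0.177, where 0.0484% to 1.18% of genes passed. Rxrg alone missed without F0_Ctl 2, at an edgeR adjusted p of 0.0521, where 2.59% of genes passed. Over the alternatives, Adora2a passed in 15 of 23, with adjusted p from 0.000455 to 0.177, and Rxrg in 13 of 23, with adjusted p from 3.44e-05 to 0.182. DESeq2 called 7 members, all but Pde10a and Ido1, where it called 5.99% of genes, and limma voom with library weights called 4, where it called 29.9%. Without the filter on low counts edgeR called those 7 as well, where 2.84% of genes passed, and fitting the compared groups alone gave 6, where 24.2% passed. Shares for DESeq2 and for edgeR without the filter are, throughout, of 24518 genes, against 16153 for limma voom and the main edgeR fit. The 24518 include genes to which DESeq2 gave no adjusted p, so its shares are low beside the others. In FPKM, limma called Ppp1r1b alone of 7 tested members, with a log2 fold change of 2.01 on the log2(FPKM + 1) scale and an adjusted p = 0.0248. In that fit 6 of the 7 had an unadjusted p under 0.05, against 31.4% of 13793 genes. The share of genes called by it is not given here, so this call has no background beside it. Libraries of the control groups also mattered through the shared spread, with 6 called without F0_Ctl 3, where 5.28% of genes passed, 4 without F1_Ctl 1 or F1_Ctl 3, where 6.65% and 7.1% passed, and 3 without F0_Ctl 1, where 4.32% passed. With F0_Ctl 3, F1_Ctl 3 and F1_Dep 1 all left out, an alternative added once the values were known, edgeR called 5 (Adora2a, Drd1, Ppp1r1b, Rxrg and Six3) and 8.28% of genes.

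Every F1_Dep library exceeded every F0_Dep library in 7 of the 9 genes, all but Pde10a and Ido1, and 22.6% of all genes did so in that direction. Beside this difference, choroid plexus markers stood higher in F1_Dep in 16 of 16 members, ependymal markers in 8 of 8, and dentate granule cell markers lower in 11 of 11, with medians of 3.93, 2.30 and -1.23. None of the choroid plexus or ependymal genes passed, while Tdo2 and Plk5 of the dentate list fell, with edgeR adjusted p of 0.101 and 0.081 without F1_Dep 1. All 8 oligodendrocyte markers were higher (median 1.03) and Ermn among them rose, while all 11 tested thalamus markers were lower (median -0.67) and none passed. In the CA pyramidal list Nptx1 fell, and Zbtb20 fell among 5 markers shared by hippocampal glutamatergic neurons. Without F1_Dep 1 the edgeR adjusted p was 0.109 for Ermn, 0.122 for Nptx1 and 0.0885 for Zbtb20. Summed choroid plexus markers ranged from 3780 to 6491 CPM in F1_Dep and from 271 to 626 CPM in F0_Dep, none of the 16 at 0 in every library of a group. The part of these markers in the members' difference was not tested.

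**Figure D3:**
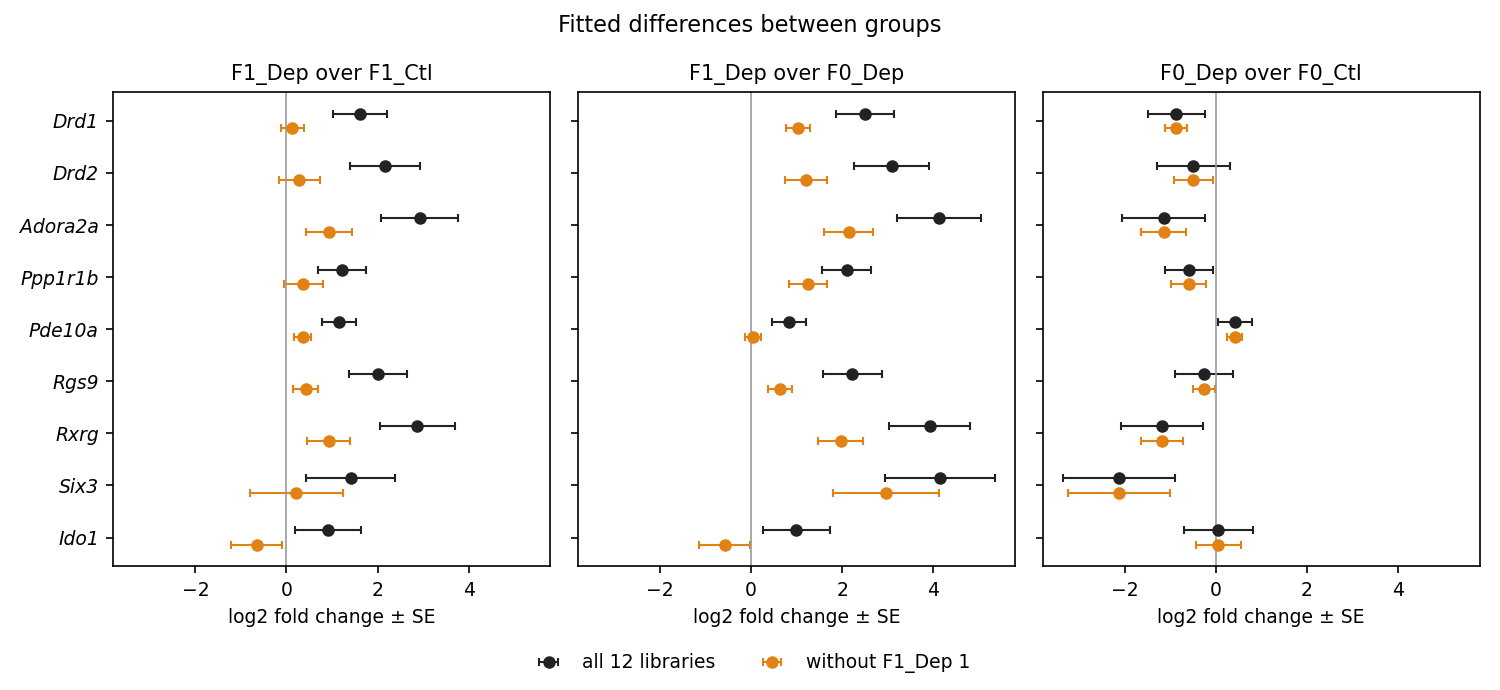
Log2 fold change ± SE of each gene in 3 comparisons, first-named group over the second, fitted with all 12 libraries (black) and without F1_Dep 1 (orange). In F1_Dep over F1_Ctl the points move to within about 1 of 0 without F1_Dep 1, while in F1_Dep over F0_Dep 8 of the 9 stay above 0.

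For sons of depressed males against sons of normal males, the comparison by the father's state within a generation, all 9 genes stood higher in F1_Dep, and none passed. Here, in the interaction and in F1_Ctl over F0_Ctl, a sequencing batch cannot be told apart from F1_Ctl. The log2 fold changes were 2.93 ± 0.85 for Adora2a, 2.88 ± 0.82 for Rxrg, 2.16 ± 0.77 for Drd2, 2.01 ± 0.64 for Rgs9, 1.61 ± 0.60 for Drd1, 1.41 ± 0.98 for Six3, 1.22 ± 0.52 for Ppp1r1b, 1.15 ± 0.38 for Pde10a and 0.92 ± 0.72 for Ido1 (SE). The edgeR adjusted p ran from 0.144 to 0.596, where 0.167% of genes were called, and 7 members had an unadjusted p under 0.05, against 14.9% of all genes. DESeq2 called 2 members, Rxrg and Adora2a, with adjusted p of 0.00617 and 0.037, where it called 2.19% of genes, and limma voom called 0, where it called 9.54%. Over the alternatives the adjusted p ran from 0.00617 to 0.48 for Rxrg and from 0.037 to 0.509 for Adora2a. The median was 1.61, against -0.02 over all genes, and 0.35 without F1_Dep 1. Without that library 0 members had an unadjusted p under 0.05, against 11.3% of all genes, and 0 were called, as were 0.127% of genes. Drd1 then had 0.13 ± 0.26, Drd2 0.28 ± 0.45, Adora2a 0.94 ± 0.51 and Rxrg 0.92 ± 0.47, and Ido1 turned to -0.66 ± 0.56. With F1_Ctl 3 and F0_Ctl 3 left out as well, Ppp1r1b rose by 1.03 with an edgeR adjusted p = 0.0119, where 2.12% of genes passed; over the alternatives its adjusted p ran from 0.0119 to 0.794. The libraries then compared had choroid plexus marker levels of 2.85 and 2.79 in F1_Dep 2 and 3, against -1.57 and 0.02 in F1_Ctl 1 and 2. Rxrg was the 1 gene with every F1_Dep library above every F1_Ctl library, where 8.72% of all genes were. Dentate granule cell markers stood lower in F1_Dep in 10 of 11 here, with a median of -1.35, and Tdo2 and Plk5 fell, with edgeR adjusted p of 0.0822 and 0.0886 without F1_Dep 1. Without that library all 11 were lower (median -1.04), and C1ql2 of the list fell, with a log2 fold change of -1.70 and an edgeR adjusted p = 0.0368. With all 12 libraries 14 of the 16 choroid plexus markers were higher (median 0.20) and all 11 thalamus markers lower (median -0.49). The part of these markers in the members' difference was not tested.

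Stressed males against normal males of the same generation gave the opposite sign for most of the genes, and none passed. The median was -0.59, against -0.03 over all genes, with 7 of 9 lower in F0_Dep. Log2 fold changes were -2.13 ± 1.24 for Six3, -1.19 ± 0.90 for Rxrg, -1.15 ± 0.91 for Adora2a, -0.86 ± 0.62 for Drd1, -0.59 ± 0.52 for Ppp1r1b, -0.49 ± 0.81 for Drd2, -0.26 ± 0.64 for Rgs9, 0.06 ± 0.76 for Ido1 and 0.42 ± 0.37 for Pde10a (SE). The edgeR adjusted p ran from 0.366 to 0.974, where 0.501% of genes were called, and 0 members had an unadjusted p under 0.05, against 19.7% of all genes. DESeq2, which gave an adjusted p for 7 of the 9, called 0, where it called 4.25% of genes, and limma voom called 0, where it called 2.82%. The shared spread of this fit included F1_Dep 1. Without that library the fold changes moved by less than 0.01, Drd1 and Pde10a had standard errors of 0.24 and 0.16, and 4 members had an unadjusted p under 0.05, against 18.9% of all genes, with none called, as were 0.254% of genes; the lowest edgeR adjusted p was 0.115, for Drd1. Drd1 was lower in every F0_Dep library than in every F0_Ctl library and Pde10a was higher, and 13.7% of all genes were so in each direction. Without F0_Ctl 3, the F0_Ctl library with high choroid plexus markers, the median of the members was -0.13. Choroid plexus markers stood lower in F0_Dep in 15 of 16, with a median of -2.70 and none past the threshold. Their part in the members' values was not tested.

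Sons of depressed males against normal males of the earlier generation had 9 of 9 genes higher in F1_Dep, with a median of 1.97 against -0.01 over all genes and none of the 9 passing, where 0% of all genes were called. The log2 fold change was 2.98 ± 0.85 for Adora2a, 2.73 ± 0.81 for Rxrg, 2.60 ± 0.79 for Drd2 and 1.24 ± 0.38 for Pde10a, and lay between 1.05 and 2.03 for the other 5. The edgeR adjusted p ran from 0.183 to 0.584, and 7 members had an unadjusted p under 0.05, against 12.9% of all genes. DESeq2 called 2, Rxrg and Adora2a, where it called 1.6% of genes, and limma voom called 0, where it called 0.0805%. Pde10a and Rxrg were higher in every F1_Dep library than in every F0_Ctl library, where 9.1% of all genes were. Without F1_Dep 1 the median was 0.66, with 0 called, as were 0.0725% of genes, and 1 member had an unadjusted p under 0.05, against 9.15% of all genes. With F0_Ctl 3 and F1_Ctl 3 also left out, edgeR called Ppp1r1b and Six3, with log2 fold changes of 1.05 and 3.53, where 3.86% of genes passed. The libraries then compared had choroid plexus marker levels of 2.85 and 2.79 in F1_Dep 2 and 3, against -3.27 and -3.71 in F0_Ctl 1 and 2. With all 12 libraries, choroid plexus markers stood higher in F1_Dep in 16 of 16, ependymal markers in 8 of 8, oligodendrocyte markers in 8 of 8 and dentate granule cell markers lower in 11 of 11, with medians of 1.20, 0.98, 0.49 and -1.11 and none past the threshold. The part of these markers in the members' values was not tested.

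Between sons of normal males and normal males, the control groups of the 2 generations, the members had a median of 0.10 against 0.02 over all genes, with 7 higher and 2 lower in F1_Ctl. Fold changes ran from -0.14 ± 0.83 for Rxrg to 0.62 ± 1.02 for Six3 on the log2 scale. The edgeR adjusted p was at least 0.875, where 0% of all genes were called, with 0 members at an unadjusted p under 0.05, against 5.93% of all genes, and 0 called by DESeq2 or limma voom. None of the 9 was separated between the groups, against 2.71% of all genes higher and 3.34% lower in every F1_Ctl library. Without F1_Ctl 1 the median was -0.08, so its sign depended on that library. In this comparison too, a sequencing batch cannot be told apart from F1_Ctl.

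The interaction asks whether the difference in the sons differed from that in the stressed males themselves. All 9 values were above 0, with a median of 2.48 against 0.00 over all genes, and ran from 0.73 ± 0.53 for Pde10a to 4.07 ± 1.23 for Adora2a and 4.06 ± 1.20 for Rxrg. None passed, with edgeR adjusted p from 0.172 to 0.777, where 0.0681% of genes were called, and 7 members had an unadjusted p under 0.05, against 13.4% of all genes. DESeq2 called Rxrg, where it called 1.98% of genes, and limma voom called 0, where it called 2.2%. Without F1_Dep 1 the median was 0.96, 7 values were above 0, 3 members had an unadjusted p under 0.05, against 10.7% of all genes, and none was called, as were 0.0121% of genes. With F0_Ctl 3 and F1_Ctl 3 also left out, Ppp1r1b was called at 1.24 (edgeR adjusted p = 0.0186), where 2.84% of genes passed; the choroid plexus levels of the libraries left are those given above. Since this test reuses the F1_Dep 1 library and the same control groups, it is no separate evidence beside the comparisons above.

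Among the 11 libraries other than F1_Dep 1, the genes fell into parts that varied together and parts that did not. Correlations here are descriptions, with no test, over libraries scaled for depth whose markers of other cells and regions also differed. The Pearson correlation of a gene's log2 CPM with the median of the other 8 was 0.94 for Adora2a, 0.84 for Drd2, 0.83 for Drd1, 0.81 for Rxrg, 0.79 for Rgs9, 0.78 for Six3 and 0.57 for Ppp1r1b. Pde10a and Ido1 had 0.05 and -0.12. Six3 and Ppp1r1b followed the level of the choroid plexus markers over the same 11 libraries, with Spearman correlations of 0.76 and 0.83. Drd2, Rxrg, Adora2a and Drd1 had 0.64, 0.59, 0.58 and 0.45 with those markers, and Rgs9, Pde10a and Ido1 had 0.19, -0.08 and -0.18. The level of the 9 genes together was 2.96, 0.62 and -0.05 in F1_Dep, 0.09, -0.34 and -0.42 in F1_Ctl, -0.69, -1.05 and -0.72 in F0_Dep, and -0.59, -0.47 and 0.36 in F0_Ctl. F0_Ctl 3 thus ranked 3 of the 12 libraries, and the 3 F0_Dep libraries were the lowest.

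**Figure D4:**
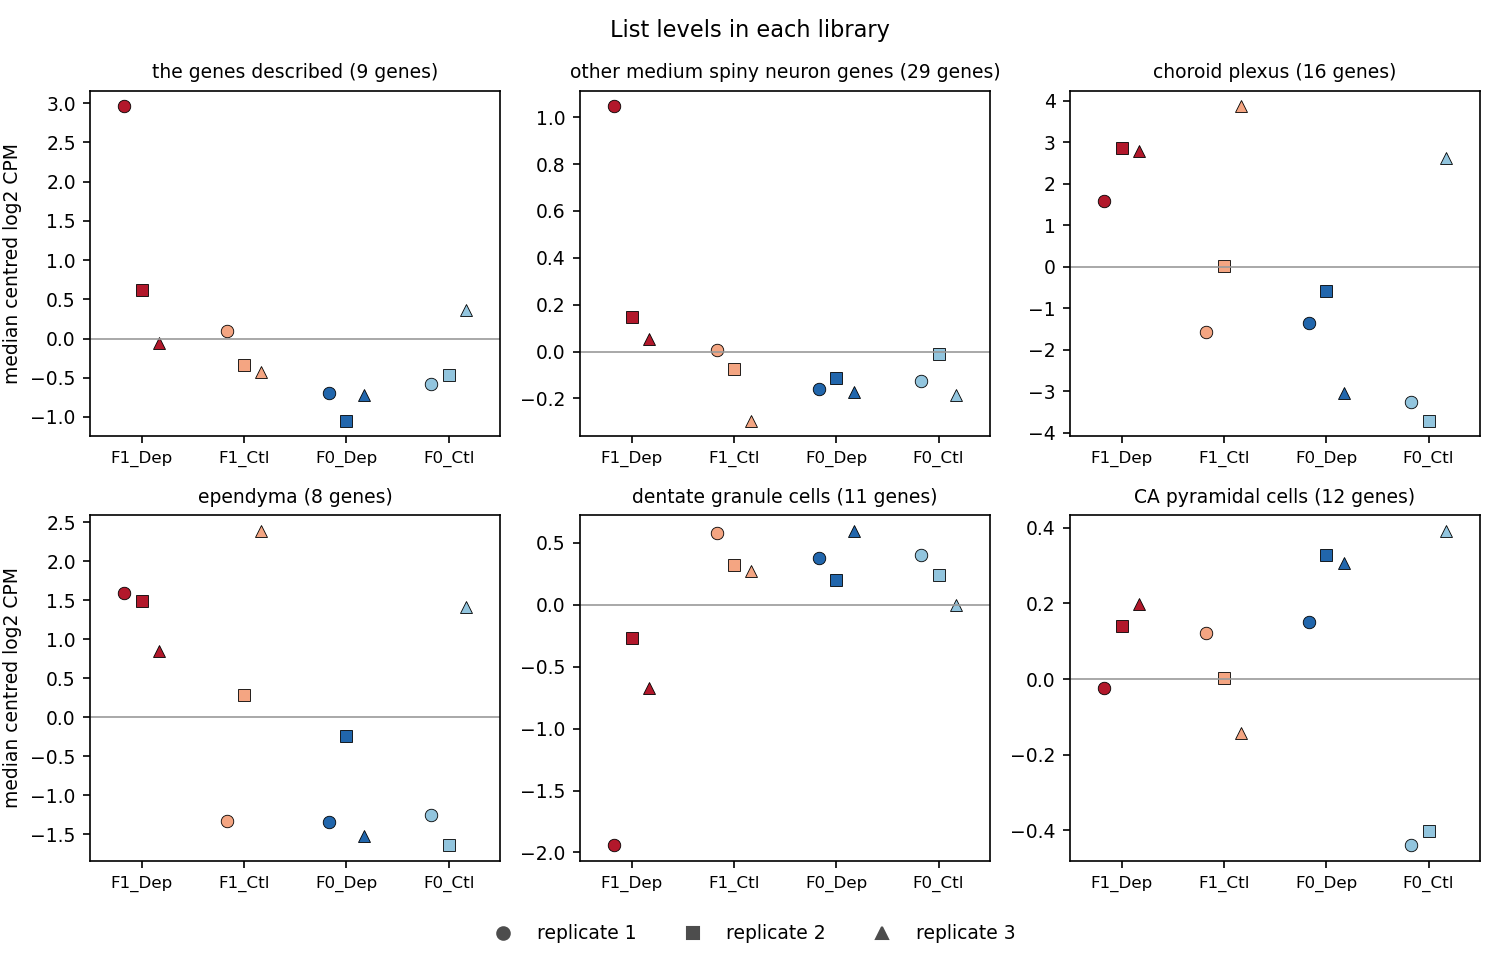
Level of 6 gene lists in each library (median over the list of log2 CPM, each gene relative to its mean over the 12 libraries), by group; the marker shape gives the replicate. F1_Dep 1 is the highest library for the 9 genes at 2.96 and the lowest for dentate granule cell markers at -1.94, while choroid plexus markers were highest in F1_Ctl 3 at 3.87.

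Markers of other regions and cells were read in the same libraries. Those of cerebral cortex had levels from 0.21 to 0.30 in F1_Dep, -0.20 to -0.13 in F1_Ctl, -0.34 to -0.23 in F0_Dep and -0.26 to 0.18 in F0_Ctl. Thalamus markers ran from -0.40 to -0.19 in F1_Dep, -0.08 to 0.53 in F1_Ctl, -0.07 to 1.01 in F0_Dep and -0.48 to 0.41 in F0_Ctl. Markers of septum and hypothalamus ran from -0.46 to -0.06 in F1_Dep and from -0.26 to 0.35 over the other groups. CA pyramidal cell markers, from the main output neurons of the hippocampus, summed to 1651 to 1827 CPM in F1_Dep, 1509 to 1795 CPM in F1_Ctl, 1998 to 2106 CPM in F0_Dep and 1564 to 1971 CPM in F0_Ctl, so these markers were present in each library. Other hippocampal markers were lowest in F1_Dep 1. Those shared by hippocampal glutamatergic neurons summed to 4584 CPM there and to 5406 to 7743 CPM elsewhere. The dentate granule cell level there was -1.94. Oligodendrocyte markers ran from 0.39 to 0.58 in F1_Dep, -0.02 to 0.78 in F1_Ctl, -0.63 to -0.45 in F0_Dep and -0.87 to 0.49 in F0_Ctl. Of cholinergic neuron markers, which also mark striatal interneurons, 1 of 6 passed the filter, and their summed level was 12.03, 0.861 and 1.58 CPM in F1_Dep, 0.649 to 2.37 CPM in F1_Ctl, 0.815 to 1.11 CPM in F0_Dep and 0.509 to 2.36 CPM in F0_Ctl. F1_Dep 2 and 3 lay inside the range of the other groups. The cholinergic list holds Isl1, which is also on the medium spiny neuron list and had 2.93 CPM in F1_Dep 1. Foxp2 is likewise on both the cortex and the medium spiny neuron lists. Of 9 dopamine neuron markers, 8 were measured and 3 passed the filter, with levels from 0.01 to 0.51 in F1_Dep and from -0.86 to 0.72 over the other groups.

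The genes most like the 9 over the 12 libraries were ranked by the Pearson correlation of log2 CPM with the members' level, among 12711 protein-coding genes. They were Pld5 (0.97), Tac1 (0.97), Gpr6 (0.95), Arpp19 (0.94), Rarb (0.93), Smap1 (0.93), Sp9 (0.93), Arhgap25 (0.93), Foxp2 (0.93) and Rasgrp2 (0.92). Six3 and Ido1, by the same measure with their own level included, had 0.80 and 0.73. Without F1_Dep 1 the correlation was 0.86 for Pld5, 0.85 for Tac1 and 0.83 for Gpr6, and 0.66 for Arpp19, so part of each ranking rested on that library. Gpr6, an orphan receptor, had 16.97, 2.11 and 0.720 CPM in F1_Dep, 1.85, 0.715 and 1.05 CPM in F1_Ctl, 0.380, 0.222 and 0.491 CPM in F0_Dep, and 0.865, 0.285 and 1.09 CPM in F0_Ctl. Smap1 differed far less, with 106, 95.2 and 88.5 CPM in F1_Dep and 81.9 to 89.7 CPM in the other groups.

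In the pathway lists described next, at most 1 gene of a list passed. Of 6 dopamine and adenosine receptor genes outside the members, 4 were tested and 0 passed in any comparison, with a median of -0.01 in F1_Dep over F0_Dep and of 0.10 without F1_Dep 1. Adora1, the inhibitory adenosine receptor of hippocampal neurons, had 325, 335 and 343 CPM in F1_Dep, 323, 291 and 231 CPM in F1_Ctl, 312, 370 and 368 CPM in F0_Dep, and 210, 250 and 313 CPM in F0_Ctl. Drd5, a dopamine receptor that stimulates adenylyl cyclase, had 10.03, 16.5 and 17.96 CPM in F1_Dep and 12.3 to 28.0 CPM in the other groups. For both, F1_Dep 1 lay within or below the range of the rest. Of 32 tested cyclic AMP signalling partners, led in CPM by Ppp3ca, a calcineurin subunit, and Adcy1, an adenylyl cyclase, 0 passed and the median in F1_Dep over F0_Dep was 0.08 (0.05 without F1_Dep 1). The 6 tested genes of dopamine synthesis, transport and breakdown, led by Maoa and Maob, had 0 passing and a median of 0.18 (0.29 without F1_Dep 1). For 9 tested genes of adenosine formation, transport and breakdown, led by Adk and Ahcy, 0 passed and the median was 0.18 (0.15 without F1_Dep 1).

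Ido1's route and the relatives of Rxrg and Six3 were described in the same way. Of 6 tested tryptophan and kynurenine enzymes, 1 passed. Tdo2, which catalyses the same first step as Ido1 and which also stands on the dentate list, had 1.70, 4.13 and 3.02 CPM in F1_Dep, 9.28, 11.6 and 11.03 CPM in F1_Ctl, 9.34, 7.59 and 9.98 CPM in F0_Dep, and 11.5, 6.04 and 7.58 CPM in F0_Ctl. All F1_Dep libraries were below all others. Taking 1 other group at a time, 10.3% of all genes were so against F1_Ctl, 20.4% against F0_Dep and 10.5% against F0_Ctl. In F1_Dep over F1_Ctl it fell by 1.84 on the log2 scale (SE 0.30, edgeR adjusted p = 0.0435), and in F1_Dep over F0_Dep by 1.60 (SE 0.30, edgeR adjusted p = 0.0289). With single libraries left out, these falls passed in 5 and 7 of 12 fits; without F1_Dep 1 the log2 fold changes were -1.57 and -1.32, with edgeR adjusted p of 0.0822 and 0.101. Kyat1, the most abundant of the list, had 12.4 to 16.1 CPM over the 12 libraries. The 11 tested retinoid receptors and enzymes, led by Aldh1a1 and Cyp26b1, had 0 passing and a median of 0.24 in F1_Dep over F0_Dep and -0.35 in F1_Dep over F1_Ctl. Without F1_Dep 1, when 12 were tested, these medians were -0.06 and -0.46, so the sign in F1_Dep over F0_Dep depended on that library. The 10 tested homeobox genes of the Six3 family and the forebrain, led by Dlx1 and Lhx6, had 0 passing and medians of 0.25 and 0.34 in those comparisons (0.15 and 0.20 without F1_Dep 1). Of the other medium spiny neuron genes 26 of 29 stood higher in F1_Dep than in F0_Dep, with a median of 0.64, where 50.8% of all genes stood higher. Without F1_Dep 1 it was 20 of 29, with a median of 0.22, where 50.2% of all genes did.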

How the data were processed

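Hippocampal RNA of 12 mice was sequenced with a stranded mRNA kit, per the labels' protocols. The authors deposited expected counts per gene for 12 libraries and FPKM for 9, those of F1_Dep, F0_Dep and F0_Ctl. HISAT2, Cufflinks 2.2.1 and mm10 are named per the submitters' processing notes; no source used here gives the counting tool, annotation or use of strand. The number of unused per-sample columns was 0. IDs without a symbol, 0.579% of counts, were tested under their ID.

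The 9 members and all lists were chosen with earlier results of these data known. All 9 were named in every comparison. Of pathway lists, genes past the threshold and the 2 of highest mean CPM were named, and the 10 most similar genes were taken by correlation among protein-coding genes with a mean of at least 2 CPM. Genes outside this rule (Penk, Isl1, and the called markers Plk5, C1ql2, Ermn, Nptx1 and Zbtb20) were named after their values were seen. 2 genes of these lists are not reported here and were left out of their lists' counts and levels; both stayed in the fits over all genes.

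Expected counts were rounded and tested with edgeR 4.0.16 (TMM, filterByExpr, quasi-likelihood F-test over the 4 groups, Benjamini-Hochberg adjusted p under 0.05). CPM is per TMM-scaled library size. Standard errors were derived from the fold change and F statistic and are approximate. P-values measure the spread between mice, not between fathers, which the labels do not name. The test was checked on simulated counts. Log2 CPM used a prior count of 2. Alternatives used DESeq2 1.42.0, limma 3.58.1 with voom and library weights, or limma on log2(FPKM + 1) for genes reaching an FPKM of 1 in 3 or more libraries; fold changes on that scale understate the change of low genes. Coordinates are those of GENCODE on GRCm38, and promoter sequences are from RefSeq.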

Additional observations from a re-analysis of the deposited data

How the results depend on the processing

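F1_Dep 1 enters the shared spread of every comparison, and counts as low as 1 in Six3 and 6 in Ido1 limit their precision. In F1_Dep over F0_Dep the 2 members called became 7 at an adjusted p under 0.1, 7 without the filter on low counts, 7 by DESeq2, 4 by limma voom, 1 by limma on log2(FPKM + 1), 6 with the compared groups alone, 0 with the replicate block and 5 without F0_Ctl 3, F1_Ctl 3 and F1_Dep 1 together. Leaving out single libraries gave 0 to 6, with medians of 1.21 to 2.94. The share of all genes passing is not given for the 0.1 threshold, limma on log2(FPKM + 1) or the replicate block. Those counts therefore say nothing particular about the members. With the block, 7 members had an unadjusted p under 0.05, against 21.5% of all genes. Same-numbered libraries did not pair (correlations of deviations from -0.17 to 0.50, median -0.02, over 18 pairs), so the block describes a shared number only. Without the 3 libraries together the median was 1.21 in that comparison, -0.13 in F0_Dep over F0_Ctl, 0.33 in F1_Dep over F1_Ctl (1 called), 0.64 in F1_Ctl over F0_Ctl and 0.46 in the interaction (1 called), and 2 were called in F1_Dep over F0_Ctl. DESeq2 called 2 in F1_Dep over F1_Ctl, 2 in F1_Dep over F0_Ctl and 1 in the interaction, whose median by limma voom was 1.37. Leaving out single libraries gave medians of -0.81 to -0.13 in F0_Dep over F0_Ctl, 0.35 to 2.05 in F1_Dep over F1_Ctl, 0.66 to 2.43 in F1_Dep over F0_Ctl, -0.0826 to 0.43 in F1_Ctl over F0_Ctl and 0.96 to 2.92 in the interaction, with 0 called in each; the reversal to -0.0826 came without F1_Ctl 1. The cause was not tested. Over all genes, 465 calls in F1_Dep over F0_Dep became 13 without F1_Dep 1, 1469 by DESeq2, 4832 by limma voom and 3762 with the compared groups alone. In F0_Dep over F0_Ctl 81 became 1043 by DESeq2, 455 by limma voom and 23 with the compared groups alone, and in F1_Dep over F1_Ctl 27 became 536, 1541 and 0. Of the single-gene values under the alternatives, 1059 kept direction and side of the threshold, 39 came to pass, 18 no longer passed, 44 changed sign without a call either way and 0 reversed a call.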
